A study of Schizosaccharomyces pombe with 4 samples.

Results

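The transcripts described here are that of adh1 (SPCC13B11.01), the gene of a fission yeast alcohol dehydrogenase, and those of the 3 annotated genes that lie antisense to it, SPCC13B11.02c, SPNCRNA.2001 and SPNCRNA.2002. They were chosen by their gene identifiers on chromosome III, and they are 4 of the 7092 genes with a value in each library. Total RNA of Schizosaccharomyces pombe was sequenced in 2 libraries labelled loz1 deletion (genotype loz1 delta, zinc supplementation given as yes) and in 2 libraries labelled wild type (zinc supplementation also given as yes). Both strains had grown in EMM, a synthetic minimal medium, made low in zinc and then supplied with zinc, which the labels put at 100 mM, a unit that was not checked. They were collected at an OD600 of about 6.0. The comparison asks which transcripts depend on loz1 when zinc is plentiful. The labels give neither the part of loz1 that was removed nor the mating type of the strains. Nor do they tell whether replicates were grown as separate cultures, so a p-value here reflects the spread among these 4 libraries alone, which may be technical.

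By way of background, Adh1 is the main alcohol dehydrogenase of fermenting fission yeast. It reduces acetaldehyde to ethanol, restores NAD+ for glycolysis, and needs zinc for catalysis. Loz1 is a zinc finger protein that binds DNA and represses a small set of genes in cells that have enough zinc, among them the zinc importer gene zrt1, the alcohol dehydrogenase gene adh4 and loz1 itself. An antisense transcript across adh1 is known in this yeast as another of its targets, and adh1 mRNA is known to fall where that transcript accumulates.

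Values are FPKM as the authors deposited them, a fragment density per transcript length and mapped total, estimated with Cufflinks. Depth estimated from the bounds of these values was 1.64e+07 to 1.87e+07 fragments per library. The loz1 transcript had 56.4 and 56.0 FPKM in the labelled deletion, against 6.87 and 5.81 FPKM in wild type. That difference of 2.97 ± 0.14 (log2, SE, limma adjusted p = 0.00112) goes against the label, so the groups are called here by their labels. Whether the counted part of the gene lies outside the part removed was not tested. The libraries also differed in mating-type genes. The M-specific gene mat1-Mc had 0 and 0.137 FPKM in the labelled deletion, against 159 and 257 FPKM in wild type. The mating-type transcript SPMTR.01 had 239 and 216 FPKM in the labelled deletion, against 0 and 0.302 FPKM in wild type. The part of the mating-type difference in the results given here was not tested. Replicates lay closer together in the labelled deletion, where the median gene differed between libraries by 0.09 on the log2 scale, than in wild type, where it differed by 0.24.

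The adh1 transcript of the files runs on the plus strand from 1589427 to 1592889 on chromosome III (build ASM294v2, 3463 nt, 1 exon). SPCC13B11.02c runs on the minus strand from 1589996 to 1593818 (3823 nt), SPNCRNA.2001 from 1590025 to 1593983 (3959 nt) and SPNCRNA.2002 from 1590089 to 1593983 (3895 nt), each with 1 exon. The antisense transcripts share 3730 nt with each other. SPCC13B11.02c holds 29 nt that SPNCRNA.2001 lacks, SPNCRNA.2001 holds 64 nt that SPNCRNA.2002 lacks, and SPNCRNA.2002 lies entirely within SPNCRNA.2001. Between them the 3 read across 2894 nt of adh1, which is 83.6% of its length. A further transcript of the minus strand, SPNCRNA.1208, covers 332 nt at the 5′ end of adh1, so that 93.2% of adh1 has an annotated transcript on the other strand. The stretch of adh1 that no other transcript touches is 237 nt long, from 1589759 to 1589995. None of the 3 antisense transcripts has a base that no other transcript covers.

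The deposited models are longer than the coding parts. In RefSeq's annotation of the later release ASM294v3 the adh1 transcript is 1598 nt long (1591292 to 1592889) and starts 1865 nt after the start in the files. Its coding sequence (1591359 to 1592411, 350 residues) lies completely within the antisense transcripts. SPCC13B11.02c has a coding sequence of 417 nt (1593402 to 1593818, 138 residues), annotated as an uncharacterised protein, and 3406 nt of the transcript in the files lie beyond it. SPNCRNA.2001 has the same coordinates as the RefSeq gene adh1AS (SPNCRNA.1710), the antisense RNA of adh1. Of 996 introns on chromosome III in the files, 972 (97.6%) had the same coordinates in RefSeq, so both were set on one scale.

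**Figure D1:**
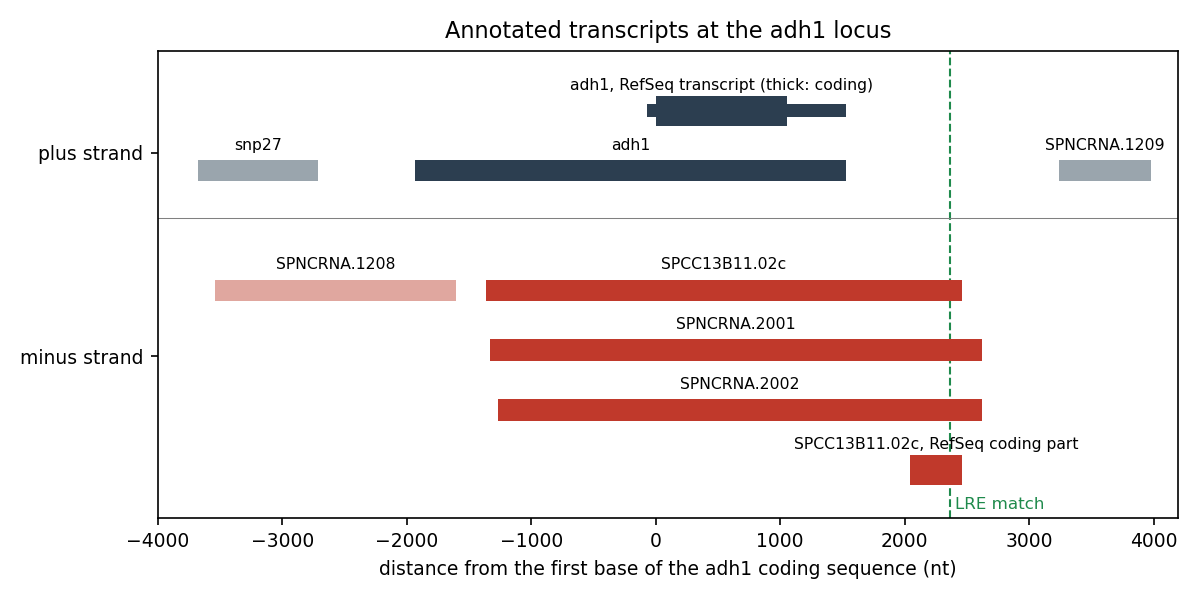
Annotated transcripts at the adh1 locus, plotted by distance in nt from the first base of the adh1 coding sequence, with the plus strand above and the minus strand underneath. Dark blue bars show adh1 as in the files and as in RefSeq (thick for the coding part), red bars the antisense transcripts and the RefSeq coding part of SPCC13B11.02c, pale bars the nearest neighbours, and the dashed line the match to the Loz1 response element (LRE), which lies past the 3′ end of adh1.

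The sequence at the start of SPCC13B11.02c is shown because it holds the locus's match to the Loz1 response element, the DNA motif that Loz1 binds. That motif is 11 bases long and was searched by its known pattern on both strands of the RefSeq genome. It matched 181 times on chromosomes I, II and III and 35 times on chromosome III. A single match fell in the 4557 nt spanned by adh1 and its antisense transcripts, at 1593721 to 1593731 on the minus strand. It lies inside each of the antisense transcripts, of which SPNCRNA.2001 and SPNCRNA.2002 begin further upstream, at 1593983. It lies 832 nt beyond the 3′ end of adh1 and covers bases 88 to 98 of the SPCC13B11.02c coding sequence, counted from 1 at its first base. The first 150 bases of that coding sequence (ASM294v3, III:1593669-1593818, minus strand) are given 5′ to 3′, with the match in capitals.
SPCC13B11.02c: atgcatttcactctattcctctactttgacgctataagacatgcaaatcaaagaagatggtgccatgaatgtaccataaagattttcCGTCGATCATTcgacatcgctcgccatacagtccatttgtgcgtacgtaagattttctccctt

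The matches near zrt1 and loz1, known Loz1 targets, are set beside it for comparison. Each line gives the match in capitals with 9 bases on either side, 5′ to 3′ in ASM294v3. They are at III:1593712-1593740 (minus strand), II:3606974-3607002 (plus strand) and I:4195588-4195616 (minus strand).
SPCC13B11.02c: aagattttcCGTCGATCATTcgacatcgc
zrt1: attttcaagCGTCGATCCTTaaaccttgg
loz1: ttacttcaaCGCAGATCATTcgtcgatca
The zrt1 match lies at -194 to -184 from the start of its gene, and the loz1 match at -394 to -384. No match was found within 1000 nt of the start of adh4 or of adh1. A match in the window from 250 bases before to 50 after a gene's start was present for 19 of 5113 protein-coding genes (0.372%), and SPCC13B11.02c had none in that window. In a window from 300 before to 300 after, which was widened after the match had been seen, 41 of 5113 (0.802%) held one. The 4-base core GATC alone was present in 42.6% of the shorter windows and occurred 17 times in the locus. A match is a description of the letters and not evidence of binding.

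adh1 RNA was lower in the libraries labelled loz1 deletion. It had 30.6 and 67.6 FPKM in the labelled deletion, against 386 and 642 FPKM in wild type. Both labelled deletion libraries were below both wild-type libraries, and the lowest wild-type value was 5.71 times the highest labelled deletion value. The means were 49.1 ± 26.2 FPKM in the labelled deletion and 514 ± 181 FPKM in wild type (SD, n = 2 each). The mean in wild type was thus 10.5 times that in the labelled deletion. On the log2(FPKM + 1) scale adh1 changed by -3.42 ± 0.43 (SE, limma adjusted p = 0.0124 over 6315 genes), the 21st largest fall. By level, adh1 ranked 3478 and 1885 among 7092 genes in the labelled deletion, against 468 and 333 in wild type. Replicates of adh1 differed more than those of the median gene, by 2.21 times in the labelled deletion and by 1.66 times in wild type. The bounds that Cufflinks gives for each value were 28.2 to 33.0 and 63.5 to 71.7 FPKM in the labelled deletion, against 369 to 402 and 614 to 669 FPKM in wild type. The replicates of each group therefore lay outside each other's bounds, which cover the estimate within a library only. The call of adh1 was lost when no filter on low values or length was applied (adjusted p = 0.0507). In bulk RNA of this kind, fewer cells with a transcript and less of it per cell cannot be told apart.

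SPCC13B11.02c, whose protein is uncharacterised, went the other way. It had 2676 and 2767 FPKM in the labelled deletion, against 3.23 and 15.9 FPKM in wild type. The groups did not overlap, and the lowest labelled deletion value was 169 times the highest wild-type value. The means were 2722 ± 64.3 FPKM in the labelled deletion and 9.54 ± 8.93 FPKM in wild type (SD, n = 2 each), a ratio of 285. Among 7092 genes it ranked 60 and 55 by level in the labelled deletion, against 5913 and 4407 in wild type. Its log2 change was 8.33 ± 0.64 (SE, limma adjusted p = 0.00349), the 5th largest rise of 6315 genes. The labelled deletion libraries differed by 1.03 times and the wild-type libraries by 4.91 times, so the size of the rise depended on which wild-type library was used. Without wild-type replicate 2 the log2 change was 9.33, and without wild-type replicate 1 it was 7.33.

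SPNCRNA.2001, the non-coding antisense RNA, was given low values in both groups beside SPCC13B11.02c. It had 18.3 and 8.48 FPKM in the labelled deletion, against 1.742e-07 and 0.000526 FPKM in wild type. The upper bounds in wild type were 0.0304 and 0.0307 FPKM. It shares 3794 nt with SPCC13B11.02c, which had 3.23 and 15.9 FPKM there, so a value near 0 rests on how fragments were assigned and does not show that the transcript was absent. The values of SPNCRNA.2001 in the labelled deletion rest on the same division and do not show that this RNA was scarce there. The lower bounds in the labelled deletion were 16.7 and 7.44 FPKM. It was called higher, with a log2 change of 3.76 ± 0.40 (SE, limma adjusted p = 0.00798). As wild type was at or near 0, the size of that change is set by the pseudocount, and it was 1.83 with a pseudocount of 5 and 6.97 with one of 0.1. SPNCRNA.2002 had 0.0307 and 6.99 FPKM in the labelled deletion, against 0.000383 and 0.768 FPKM in wild type. The groups overlapped, since the higher wild-type library was above the lower labelled deletion library. Its log2 change of 1.11 ± 1.02 did not pass (SE, limma adjusted p = 0.470) and was -0.37 without labelled deletion replicate 2.

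In all, 2 of the 4 transcripts were called higher and 1 lower. Over all 6315 genes tested, 11.9% were called higher and 4.37% lower, and the median log2 change was 0.13. The calls split into 753 higher and 276 lower, or into 428 and 323 after median-ratio rescaling, which left the 3 calls at this locus in place. The libraries did not overlap, with the labelled deletion above, for those same 2 transcripts and for 44.7% of all genes tested, and with the labelled deletion below for adh1 and for 21.6% of all genes tested. Both non-coding transcripts reached the 1 FPKM filter only through the labelled deletion libraries, so SPNCRNA.2001 was tested only because it was high there and its call adds no support.

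**Figure D2:**
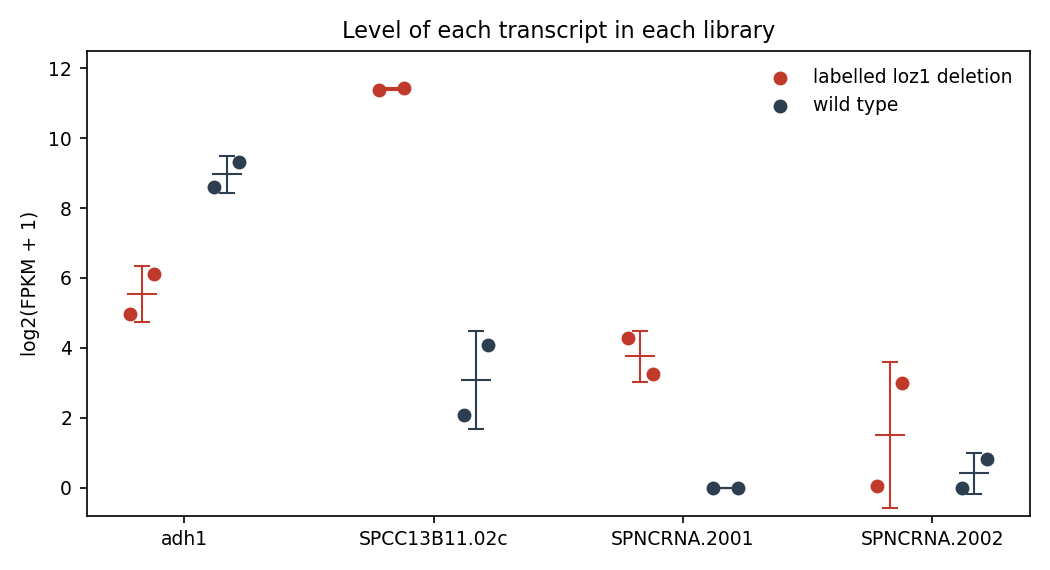
Level of each transcript in each library, as log2(FPKM + 1), with red points for the 2 libraries labelled loz1 deletion on the left and dark blue points for the 2 wild-type libraries on the right of each pair. Horizontal lines are means and bars are SD (n = 2 each). adh1 lies lower and SPCC13B11.02c and SPNCRNA.2001 lie higher in the labelled deletion with no overlap, while SPNCRNA.2002 overlaps.

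How fragments were divided between these transcripts bears on each value. Cufflinks reports the share that a transcript takes within its estimated locus. Those shares summed to 1 in each library over 7 transcripts of both strands, namely the 4 described here with SPNCRNA.1208, SPNCRNA.1207 and snp27, so they were estimated together. No strand-marking kit or strand setting is named in the labels, and without strand the reads of adh1 and of its antisense transcripts cannot be told apart over the 2894 nt that they share. Within that estimate adh1 took 1.01% and 2.13% in the labelled deletion, against 97.6% and 96.3% in wild type. SPCC13B11.02c took 97.9% and 96.9% in the labelled deletion, against 0.907% and 2.65% in wild type. The values of SPCC13B11.02c, SPNCRNA.2001 and SPNCRNA.2002 rest on a division of nearly the same bases, and which of them a fragment belongs to is uncertain.

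A sum over the locus does not depend on that division to the same extent. FPKM multiplied by transcript length in kb, which is proportional to fragments, was added over the 4 transcripts. The sum was 10410 and 10874 in the labelled deletion, against 1348 and 2286 in wild type. Both labelled deletion libraries were higher, by 4.55 to 8.07 times over the 4 pairings of libraries. The means were 10642 ± 328 in the labelled deletion and 1817 ± 663 in wild type (SD, n = 2 each), a ratio of 5.86. As a share of the same quantity over all genes, the locus held 0.876% and 0.916% in the labelled deletion, against 0.111% and 0.193% in wild type.

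The antisense side made up nearly all of the sum in one group and little of it in the other. It was 99.0% and 97.8% of the sum in the labelled deletion, against 0.916% and 2.78% in wild type. The ratio of SPCC13B11.02c to adh1 in FPKM was 87.5 and 40.9 in the labelled deletion, against 0.00837 and 0.0247 in wild type. In both groups the library with more adh1 was replicate 2, and it also had more SPCC13B11.02c. The bounds of SPCC13B11.02c in the labelled deletion overlapped, at 2565 to 2787 and 2652 to 2882 FPKM, so its order there is not established. Cufflinks gave SPCC13B11.02c most of the antisense signal. Its share was 99.3% and 99.4% in the labelled deletion, against 99.99% and 95.3% in wild type. As the antisense transcripts share 3730 nt, these shares do not tell which of them made the signal.

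**Figure D3:**
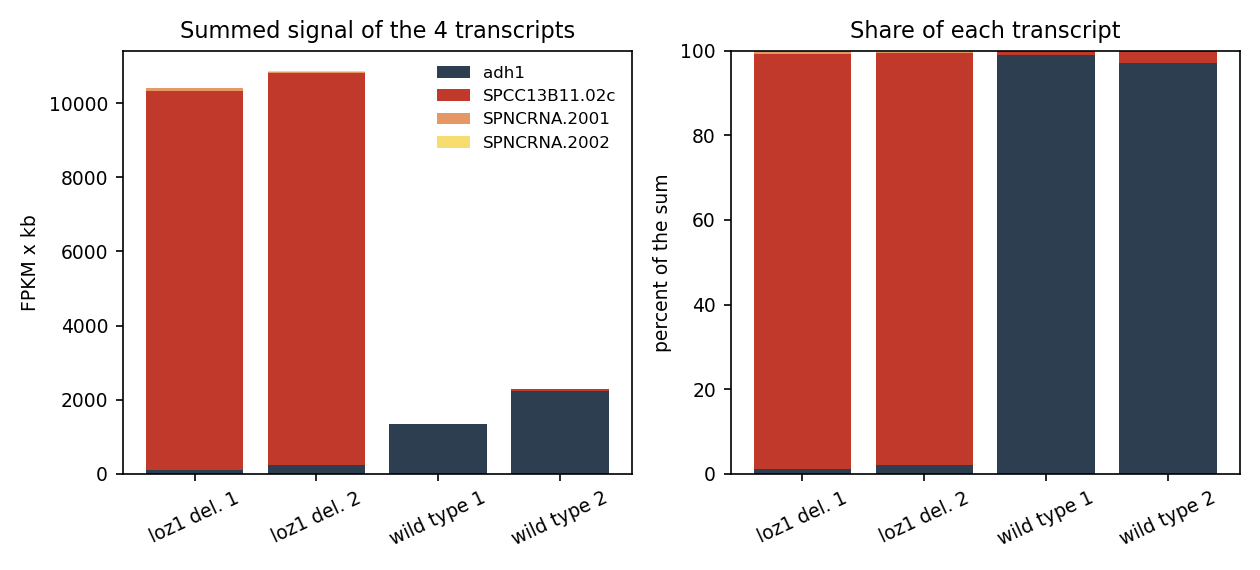
Left, FPKM multiplied by length in kb, summed over the 4 transcripts in each library. Right, the percent of that sum from each transcript. Bars stand for the 2 libraries labelled loz1 deletion and then the 2 wild-type libraries, with adh1 in dark blue and SPCC13B11.02c in red. The sum is 10410 and 10874 in the labelled deletion, nearly all of it red, and 1348 and 2286 in wild type, nearly all of it dark blue.

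The pair of adh1 and SPCC13B11.02c was set beside the other overlapping genes of the genome. Among tested genes on opposite strands, 1169 pairs overlapped by at least 50% of the shorter transcript. Both genes were called higher in 23 pairs and lower in 13, and 1 gene only was called in 241. Opposite calls were found in 13 pairs (1.11%), where 11.9% of all genes tested were called higher and 4.37% lower, so the number of such pairs is no result in itself. The pair of adh1 and SPCC13B11.02c had the largest difference in log2 change of all 1169, at 11.75. The pair of adh1 and SPNCRNA.2001 was the 3rd largest at 7.18, and that of adh1 and SPNCRNA.2002, with 1 call, was the 6th at 4.53. These 3 pairs share adh1 and are not separate cases. The place of SPNCRNA.2001 in that order depends on the pseudocount, as its own change does, and it was tested only through the labelled deletion libraries. Of the 13 pairs with opposite calls, 11 lie outside the locus.

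The next largest difference among pairs with opposite calls was 5.14, for SPAC1071.13 (-1.66) and SPNCRNA.945 (3.48). It was followed by rga3 (-1.22) and SPAC29A4.22 (3.29) with a difference of 4.51, and by SPNCRNA.454 (-1.68) and SPNCRNA.1101 (2.75) with 4.42. SPNCRNA.945, SPAC29A4.22 and SPNCRNA.1101 were listed near 0 in wild type and reached the filter only through the labelled deletion libraries, so the pseudocount sets the size of these 3 differences and their order. The same limit on strand holds for all of these pairs. With an overlap of at least 20%, 17 of 1450 pairs had opposite calls, and with at least 80%, 11 of 906. In both, adh1 and SPCC13B11.02c remained the pair with the largest difference.

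**Figure D4:**
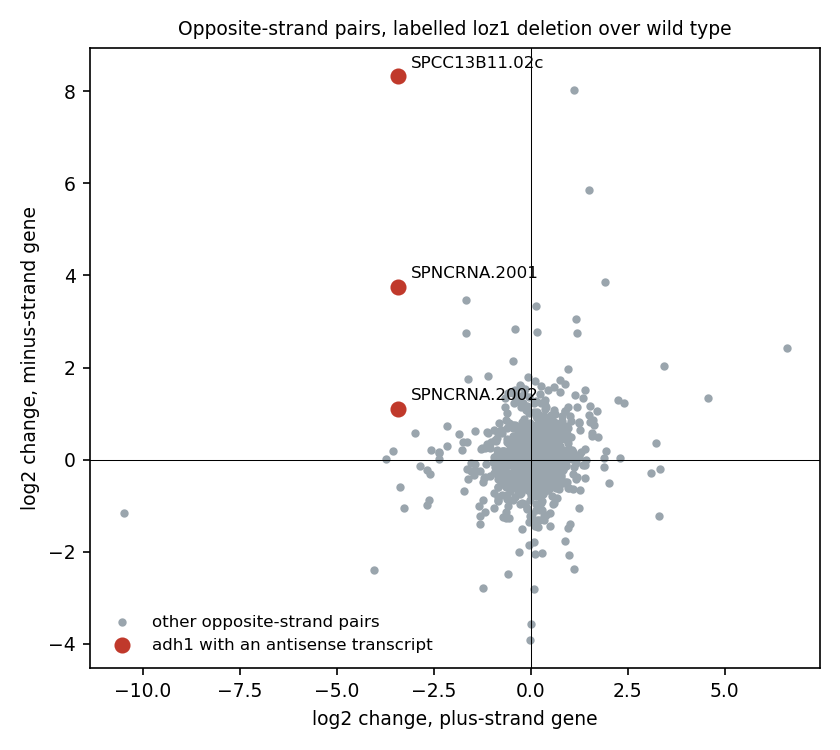
Log2 change, labelled loz1 deletion over wild type, of the plus-strand gene (x axis) and the minus-strand gene (y axis) for 1169 overlapping pairs on opposite strands. Red points are adh1 with each of its antisense transcripts, all at -3.42 on the x axis, and grey points are the other pairs. The pair with SPCC13B11.02c is at 8.33 on the y axis, at the upper left, where few other points lie far from 0.

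Of the 13 other genes with a transcript within 10 kb, 3 were called higher and none lower. Over all genes tested, 11.9% were called higher and 4.37% lower. The log2 change was positive for 13 of 13, or for 11 after median-ratio rescaling or quantile normalization, and its median was 0.63 against 0.13 over all genes. In 11 of the 13 both labelled deletion libraries were above both wild-type libraries, against 44.7% of all genes tested. The 13 are not all separate measurements. On opposite strands, snp27 overlaps SPNCRNA.1207 and SPNCRNA.1208, SPNCRNA.1209 overlaps SPCC13B11.03c, and SPCC777.03c overlaps dip5 and SPNCRNA.1210. Without strand, reads over the shared stretches cannot be told apart. snp27, SPNCRNA.1207 and SPNCRNA.1208 were also estimated together with the adh1 locus.

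On the right, past the start of the antisense transcripts, the non-coding SPNCRNA.1209 starts after 615 nt on the plus strand. It had 19.1 and 16.3 FPKM in the labelled deletion, against 2.11 and 2.94 FPKM in wild type, a log2 change of 2.41 ± 0.21 (SE, limma adjusted p = 0.00459). The groups did not overlap. On the minus strand, 889 nt from the locus, SPCC13B11.03c encodes a hydroxyacylglutathione hydrolase, an enzyme that clears a product of methylglyoxal. Its values were 34.3 and 33.3 FPKM in the labelled deletion, against 12.9 and 14.7 FPKM in wild type, a log2 change of 1.23 ± 0.13 (SE, limma adjusted p = 0.00770). SPCC13B11.03c (1594872 to 1596605) overlaps SPNCRNA.1209 (1594598 to 1595339) on the opposite strand. Without strand their reads cannot be told apart over the shared stretch, so their calls are not shown to be separate.

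On the left, SPNCRNA.1208 overlaps adh1 and had 3.11 and 2.71 FPKM in the labelled deletion, against 0.630 and 1.19 FPKM in wild type. It did not pass (log2 change 1.05 ± 0.30, SE, limma adjusted p = 0.0768). snp27 (SPCC162.01c), a subunit of the U4/U5/U6 splicing particle, had 42.4 and 42.8 FPKM in the labelled deletion, against 24.0 and 21.4 FPKM in wild type, a log2 change of 0.88 ± 0.12 (SE, limma adjusted p = 0.0136). SPNCRNA.1208 (1587817 to 1589758) also overlaps snp27 (1587682 to 1588649) on the opposite strand. Without strand the reads of SPNCRNA.1208 and snp27 cannot be told apart over the shared stretch, so their values are not shown to be separate. SPNCRNA.1208 and snp27 are among the 7 transcripts estimated together. The calls of SPNCRNA.1209, SPCC13B11.03c and snp27 were each lost without labelled deletion replicate 1 and likewise without replicate 2.

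**Figure D5:**
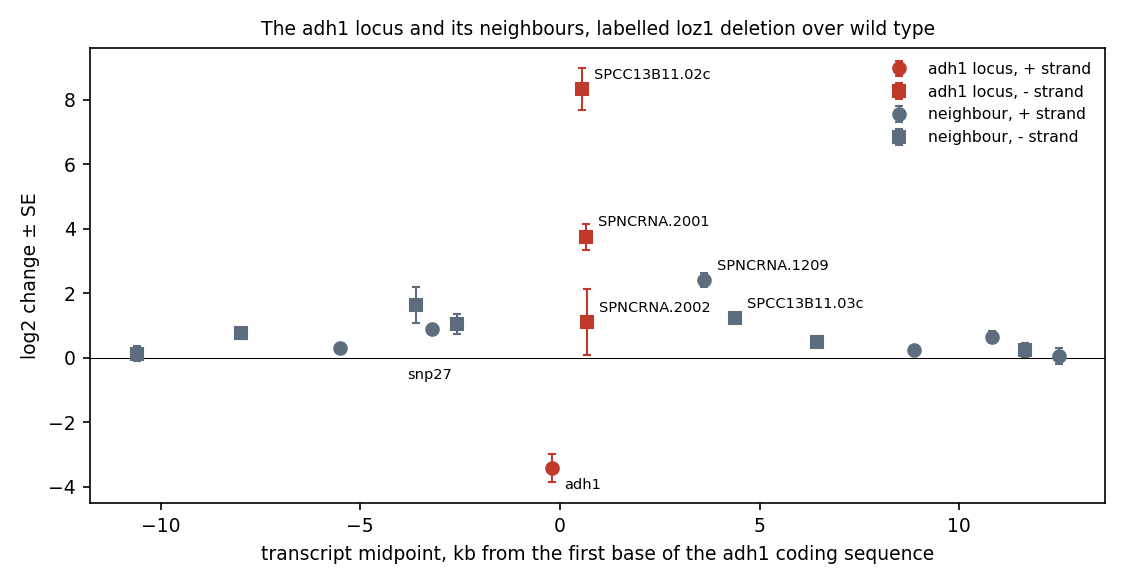
Log2 change with its SE, labelled loz1 deletion over wild type, of the 4 transcripts (red) and of the 13 neighbours within 10 kb (grey), by the midpoint of the transcript in kb from the first base of the adh1 coding sequence. Circles are plus-strand and squares minus-strand transcripts, and the names of called genes and of the 4 transcripts are printed. adh1 is the single point far under 0, at -3.42, and the called neighbours reach 2.41.

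Ethanol fermentation runs from pyruvate through pyruvate decarboxylase and alcohol dehydrogenase, and the genes of these enzymes, with the aldehyde and formaldehyde dehydrogenases, make a list of 14 by their annotated products. Of the 13 that were tested, 3 were called higher, 3 lower and 7 not, where 11.9% of all genes tested were called higher and 4.37% lower. Their median log2 change was -0.01, against 0.13 over all genes. The counts were the same after both rescalings. adh1 had the largest fall of the list and adh4, which encodes another alcohol dehydrogenase, the largest rise. adh4 had 3320 and 3602 FPKM in the labelled deletion, against 23.3 and 32.8 FPKM in wild type, a log2 change of 6.92 ± 0.18 (SE, limma adjusted p = 0.000226). The groups were far apart, and the call of adh4 was kept under each of the 11 alternatives.

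Added together, adh1 and adh4 came to 3351 and 3670 FPKM in the labelled deletion, against 409 and 674 FPKM in wild type. adh1 made up 0.913% and 1.84% of that sum in the labelled deletion, against 94.3% and 95.1% in wild type. The adh1 values rest on a model of 3463 nt, where RefSeq has 1598 nt, and on the division of fragments at its locus. The sum and the shares depend on both. The alcohol dehydrogenase gene adh8 differed less, with 71.4 and 71.3 FPKM in the labelled deletion, against 99.9 and 77.4 FPKM in wild type, and did not pass (log2 change -0.30, limma adjusted p = 0.211).

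Pyruvate decarboxylase, the enzyme that makes the acetaldehyde on which Adh1 acts, is encoded by several genes, and they did not move as one. pdc101 had 1489 and 1529 FPKM in the labelled deletion, against 474 and 554 FPKM in wild type (log2 change 1.56, limma adjusted p = 0.00420). pdc201 had 436 and 414 FPKM in the labelled deletion, against 1461 and 1240 FPKM in wild type (log2 change -1.66, limma adjusted p = 0.00378). In both genes the groups did not overlap. pdc202 fell as well, with 13.8 and 11.9 FPKM in the labelled deletion, against 21.3 and 22.6 FPKM in wild type (log2 change -0.73, limma adjusted p = 0.0347). The last call was the aldehyde dehydrogenase gene SPBC21C3.15c, at 59.6 and 57.8 FPKM in the labelled deletion, against 34.3 and 34.6 FPKM in wild type (log2 change 0.75, limma adjusted p = 0.0131). Leaving out labelled deletion replicate 1 or replicate 2 removed these 4 calls, and testing without a filter removed that of pdc202.

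Of 8 genes of zinc supply and response, 4 were called higher (zrt1, adh4, loz1 and zrg17), 1 lower (the metallothionein gene zym1) and 3 not, where 11.9% of all genes tested were called higher and 4.37% lower. Their median log2 change was 1.08, against 0.13 over all genes. The call of zrg17 was lost after both rescalings, which left 3 called higher. It was also lost without a filter and without labelled deletion replicate 1 or replicate 2.

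The pattern of adh1 over the 4 libraries was most like those of 3 non-coding genes, measured as the root mean square difference of mean-centred log2(FPKM + 1) among 5694 other genes averaging 5 FPKM or more. SPNCRNA.1631 was nearest, at 0.42, with 8.70 and 8.84 FPKM in the labelled deletion, against 60.3 and 117 FPKM in wild type. SPNCRNA.1026 was at 0.43, with 0.000333 and 0.0593 FPKM in the labelled deletion, against 5.74 and 16.1 FPKM in wild type. SPNCRNA.532 was also at 0.43, with 3.98 and 3.96 FPKM in the labelled deletion, against 36.9 and 82.8 FPKM in wild type. In all 3, as in adh1, wild-type replicate 2 was above replicate 1, an order that choosing them by likeness over these same libraries favours. Between the labelled deletion libraries adh1 differed by 2.21 times, while SPNCRNA.1631 and SPNCRNA.532 hardly differed and SPNCRNA.1026 was near 0.

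The genes nearest to SPCC13B11.02c were SPBPB2B2.15 at 0.45, SPBC1348.06c at 0.49 and SPAC977.05c at 0.54, all annotated as Vel1p domain proteins. SPBPB2B2.15 had 1023 and 1099 FPKM in the labelled deletion, against 0.190 and 2.10 FPKM in wild type. The 3 have nearly the same values, and as related copies that may share reads they are not separate measurements.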

How the data were processed

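RNA of 4 libraries was compared, 2 labelled loz1 deletion and 2 wild type, grouped by their genotype labels. The submitters' processing notes name the tools Cufflinks, Cuffdiff, HISAT2 and SAMtools and the build ASM294v2. Neither their versions nor the handling of strand and of reads with more than one match is given in the sources used here. The authors deposited 1 line per transcript with an FPKM value and its bounds, and, in a score column that was not used, the Cufflinks score. Each file holds 7093 transcripts of 7092 genes, of which 6742 matched RefSeq in the same place. The identifiers SPNCRNA.2001 and SPNCRNA.2002 name genes elsewhere in RefSeq, so SPNCRNA.2001 was matched by coordinates. No read totals are given, so depth was estimated from the bounds, and no count test was run. An estimated depth speaks for counting error alone.

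Genes averaging 1 FPKM or more, with a transcript of 200 nt or longer, were tested with limma 3.58.1 (R 4.3.3) on log2(FPKM + 1) (empirical Bayes with an intensity trend, two-sided, Benjamini-Hochberg over 6315 genes, called at an adjusted p under 0.05). A change on this scale understates that of low genes. Values were not rescaled. The model was tested on simulated data, with 50 changed genes at each size. It called 12% of changes of 1.5-fold, 62% of 2-fold and 100% of 4-fold, and 0% of 6115 unchanged genes. A change of 2-fold or less can thus be missed. The simulation drew each gene separately with a common spread per group, unlike transcripts that share bases. Named were the 4 transcripts, loz1, the alcohol dehydrogenases and called genes of the fermentation list, adh4 of the zinc list, the 2 nearest neighbours on each side, the 3 genes most alike to adh1 and to SPCC13B11.02c, and the pairs with opposite calls and the largest differences. zrt1, zrg17, zym1 and the mating-type genes are named beside them. The transcripts and lists were chosen with earlier results of these data known. Alternatives were other pseudocounts (0.1 and 5), no filter, median-ratio rescaling, quantile normalization, a prior without trend, a replicate block, each library left out and other overlaps for pairs.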

Additional observations from a re-analysis of the deposited data

How the results depend on the processing

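Over the 11 alternatives, the log2 change of adh1 ranged from -3.98 to -2.86 and it was called in 10, with adjusted p from 0.000774 to 0.0507. The exception was the test without a filter on low values or length (-3.42, adjusted p = 0.0507), which tested 6760 genes. SPCC13B11.02c ranged from 7.33 to 9.33 and SPNCRNA.2001 from 1.83 to 6.97, and both were called in all 11. SPNCRNA.2002 was called in none, ranged from -0.37 to 2.59, and changed sign without labelled deletion replicate 2 (-0.37). With each library left out in turn, which leaves 1 library in a group and assumes that it varies like the others, adh1 ranged from -3.98 to -2.86 and SPCC13B11.02c from 7.33 to 9.33.

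The counts of called genes, 753 higher and 276 lower, moved more. They were 462 and 161 without a filter, 428 and 323 after median-ratio rescaling, and 410 and 316 after quantile normalization. Rescaling moved the share of calls that were higher to 57.0% and 56.5%, against 73.2%, and the median log2 change to -0.004 and -0.02, against 0.13. With a library left out the counts ranged from 73 to 2115 higher and from 40 to 880 lower, lowest without a labelled deletion library. With the replicate block they were 538 and 224. The block kept the calls of adh1 (adjusted p = 0.000774), SPCC13B11.02c and SPNCRNA.2001. Differences between same-numbered replicates correlated at -0.012 across genes, so the numbers show no pairing over the genes as a whole. For adh1 the SE was 0.14 with the block, against 0.43 without it. Whether same-numbered replicates share a batch that affects some genes was not tested. Pairs with opposite calls numbered 11 to 17. The cause of these changes was not tested.

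SPNCRNA.2001 was listed near 0 in wild type, and SPNCRNA.2002 was under 1 FPKM in 3 of 4 libraries. Depth was similar in all 4, and the parts of depth and of the division of shared fragments in these values were not tested.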
